A study of Mus musculus with 8 samples.

Results

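miR-221 and miR-222, a pair of clustered miRNAs, were followed across terminal end buds (TEBs), mature ducts and stroma of the pubertal mouse mammary gland. They were chosen by name, as the 2 array entries called mmu-miR-221 and mmu-miR-222, out of 611 mouse miRNAs on the array. All tissue came from 5-week-old female β-actin-GFP reporter mice of the FVB/n strain, in which a ubiquitous promoter drives a fluorescent protein that guided the dissection. There were 3 arrays of TEBs (the proliferating ends of the growing ducts), 2 arrays of mature ducts and 3 arrays of stroma cut away from the epithelium. No source used here says that the arrays hold different animals, so that p-values measure the spread between these RNA samples.

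Between 23.2% and 27.7% of the mouse miRNAs were flagged as detected on each array, and 108 of them were flagged throughout, with 75th percentiles of 554.1 to 1005.1 intensity units. Of 7 epithelial miRNAs (the miR-200 family, miR-205 and miR-203), 6 were flagged in all samples labelled as epithelium, and none of the 7 was flagged in any stroma sample. Of the 167 miRNAs tested with limma, 20.4% were called higher and 44.3% lower in TEBs than in stroma, and 9.58% were called higher and 12% lower in ducts than in stroma. Beside these shares, the adipocyte-linked miR-378 and miR-378* were both called lower in TEBs and in ducts than in stroma. Of the miRNAs listed for leukocytes, 1 of 2 tested, miR-223, was called lower in TEBs than in stroma, as were both miRNAs of red cells, miR-144 and miR-451. All 4 fibroblast-linked miRNAs were flagged on all arrays, and 3 of them were called higher in TEBs than in stroma. In such dissected tissue, fewer cells of a type and less of a miRNA per cell cannot be told apart.

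miR-221 and miR-222 are made from a shared primary transcript and, having the same seed, are thought to act on overlapping sets of messages. They are best known for repressing the messages of oestrogen receptor alpha, the receptor through which ovarian oestrogen drives ductal growth, and of p27 (Cdkn1b), an inhibitor of the cell cycle. In breast cancer they are known for their abundance in basal-like cells that lack the receptor, and they are also well known in endothelium and vascular smooth muscle.

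The mature sequences are shown because the seed is what makes the pair act alike while the rest of each molecule is what an array probe can tell apart. The sequences, from RefSeq on GRCm38.p6, are written 5′ to 3′ with the seed (bases 2 to 8) in capitals, and the third line is the other mouse miRNA in that table with the same seed.
mmu-miR-221-3p: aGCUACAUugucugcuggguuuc
mmu-miR-222-3p: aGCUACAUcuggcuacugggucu
mmu-miR-1928: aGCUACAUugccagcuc
The array's names carry no arm, and the arms shown are those that bore the unsuffixed names before the arms were renamed. Both molecules are 23 bases long. They were identical over the first 8 bases and at 11 positions in all, and the longest run they shared after that start was CUGGGU, which begins at base 15 of miR-221-3p and at base 16 of miR-222-3p. Both hairpins lie on the minus strand of chromosome X, Mir221 at chrX:19146294-19146388 and Mir222 at chrX:19146893-19146971, with 504 bases between them. miR-1928 is encoded on chromosome 1 and had no entry of that name on the array.

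miR-221 gave a weak signal, and miR-222 gave none that was flagged anywhere. After scaling of the arrays to equal 75th percentiles over the 108 miRNAs flagged throughout, the signal of miR-221 was 12.5, 19.7 and 17.3 units on TEB replicates 1, 2 and 3. It was 9.1 and 15.2 units on duct replicates 1 and 2, and 10.2, 8.1 and 8.1 units on stroma replicates 1, 2 and 3. All 3 TEB arrays thus lay above all 3 stroma arrays, whereas the duct arrays straddled both, the weaker one lying among the stroma values and the stronger one among the TEB values. TEBs had a mean of 16.5 ± 3.7 (SD, n = 3), ducts of 12.2 ± 4.3 (SD, n = 2) and stroma of 8.8 ± 1.2 (SD, n = 3). This order of the means held for the scaled signals with the scanner software's background. In it, neither TEBs and ducts nor ducts and stroma differed beyond their spread.

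**Figure D1:**
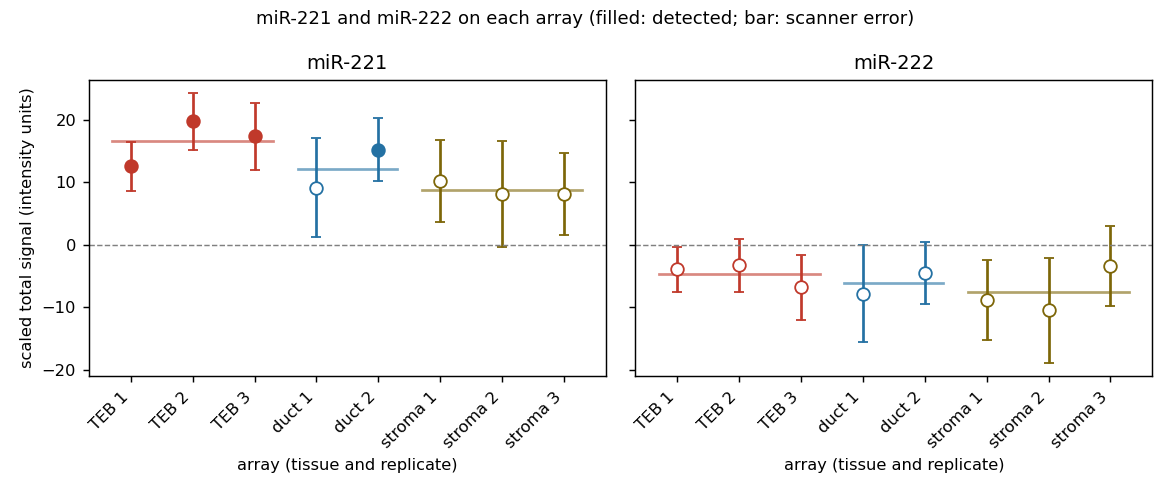
Scaled total signal (intensity units) of miR-221 (left) and miR-222 (right) on each array, with bars for the scanner software's error of that signal, short lines for tissue means, and filled symbols where the miRNA was flagged as detected. miR-221 was flagged on the 3 TEB arrays and on duct replicate 2, and miR-222 lay below 0 on all 8 arrays.

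By the scanner software's flag, miR-221 was detected on 3 of 3 TEB arrays, on 1 of 2 duct arrays and on 0 of 3 stroma arrays. The miRNAs miR-218 and miR-503 had this same pattern of flags, and 17 miRNAs, miR-221 among them, were flagged on every TEB array and on no stroma array. The flags depended on the noise of an array as well as on the signal. Before scaling, miR-221 had nearly the same signal on TEB replicate 1, where it was flagged, as on duct replicate 1, where it was not (12.4 and 12.2 units). The error of the signal was 3.8 units on the first and 10.5 units on the second, so that the signal was 3.24 times its error on the TEB array and 1.16 times on the duct array. Across the TEB arrays this ratio was 3.18 to 4.32. It was 2.98 on duct replicate 2 and between 0.96 and 1.57 on the stroma arrays. The median error over all mouse miRNAs was 3.6 to 5.0 units on the TEB arrays, 6.1 and 10.4 units on the duct arrays and 4.7 to 7.0 units on the stroma arrays, so that it was larger on both duct arrays than on any TEB array. The part of this noise in the flags of miR-221 was not tested.

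miR-222 was not flagged on any array. Its scaled signal was -3.9, -3.3 and -6.8 units on the TEB arrays, -7.8 and -4.5 units on the duct arrays, and -8.9, -10.5 and -3.4 units on the stroma arrays, in the order of the replicate numbers. The groups overlapped, and the signal was between -1.39 and -0.53 times its own error. Of the 611 mouse miRNAs, 408 were likewise never flagged and 292 were negative on all 8 arrays. With its signals all set to the floor of 1 it gave no fold change and was not tested, and the planned comparison of the change of miR-222 with that of miR-221 could not be made.

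In the comparison of TEBs with stroma, the log2 fold change of miR-221 was 0.89 towards TEBs (1.86-fold, standard error 0.25, 95% confidence interval 0.29 to 1.5, adjusted p = 0.02 from limma). It was not well above background in stroma. For each stroma array the higher of its own signal and the weakest signal flagged there was therefore also taken, and TEBs were then 1.59-fold higher. This is a point value with no allowance for error, and the confidence interval reaches below it. On stroma replicate 3 it used the measured signal, as the weakest flagged signal there was lower (3.18 units). It applies only to the scanner software's background and the scaling used here. Other background settings, given below, took the difference to about 0 or reversed it, and adding 16 units in place of the floor gave 0.39 on the log2 scale. miR-221 entered the test only through TEBs, the tissue in which it was detected, and passing that filter favours a difference in this direction. The call is also a common one, as limma called 64.7% of the tested miRNAs in this comparison, and 20.4% as higher in TEBs. The median log2 fold change of all tested miRNAs in this comparison was -0.28. An exact permutation test of these 3 arrays against 3 gave p = 0.1, the smallest it allows. Within the rows of the slide 2 TEB arrays exceeded 1 stroma array by 0.63 on the log2 scale in the first row, and 1 TEB array exceeded 2 stroma arrays by 1.10 in the second.

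Between TEBs and ducts the log2 fold change of miR-221 was 0.46 (standard error 0.28, 95% confidence interval -0.22 to 1.14, adjusted p = 0.24 from limma), where 24.6% of the tested miRNAs passed, 11.4% as higher and 13.2% as lower in TEBs. The interval includes both no difference and a change of over 2-fold towards TEBs, so the order of TEBs and ducts was not resolved. The difference rested on duct replicate 1, the array with the largest error: without it the log2 fold change was -0.12. Between ducts and stroma it was 0.43 (standard error 0.28, 95% confidence interval -0.25 to 1.11, adjusted p = 0.34 from limma), where 21.6% passed, 9.58% as higher in ducts. Without duct replicate 1 this became 1.01, and without duct replicate 2 it became 0.06. Within the slide rows, each holding 1 duct array, it was -0.15 in the first and 0.91 in the second. Taking the 5 epithelial arrays together, miR-221 exceeded the 3 stroma arrays by 0.71 on the log2 scale (exact permutation test, two-sided, p = 0.071, where 5 arrays against 3 allow 0.018). Without duct replicate 1 the difference was 0.93 (exact permutation test, p = 0.029, the smallest that 4 arrays against 3 allow), and without each other array in turn p was between 0.057 and 0.14.

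**Figure D2:**
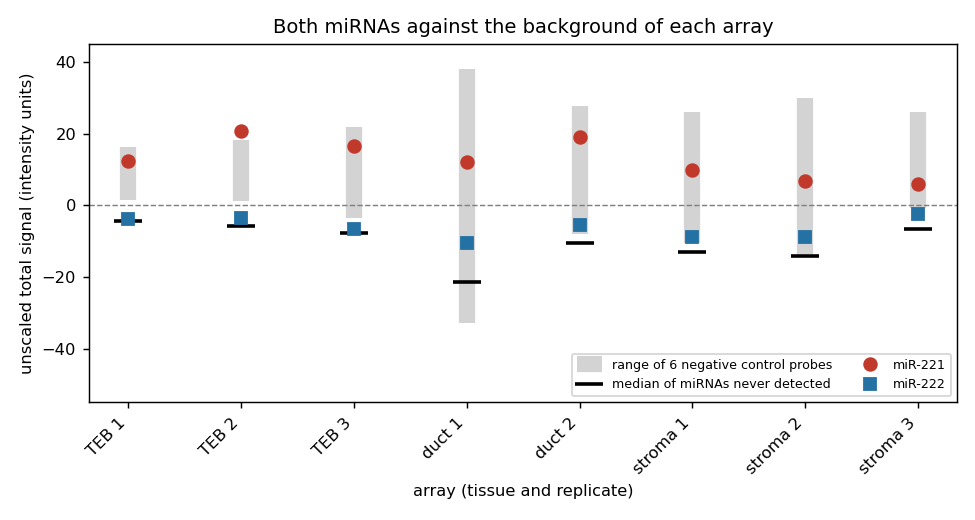
Unscaled total signal (intensity units) of miR-221 and miR-222 on each array, with grey bars for the range of 6 negative control probes and black dashes for the median of the 407 other miRNAs never flagged as detected. The background median lay lower on the duct and most stroma arrays than on the TEB arrays, and miR-221 lay inside the range of the control probes on all arrays but TEB replicate 2.

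The signal of miR-221 lay within the range of the negative control probes on 7 of the 8 arrays and above it on TEB replicate 2. None of the 6 negative control probes was flagged on any array, yet 4 of them were at or above miR-221 on duct replicate 1 and between 4 and 5 on each stroma array, against 1 on duct replicate 2. On TEB replicates 1, 2 and 3 the count was 1, 0 and 2. The level taken as 0 also moved between arrays. The median unscaled signal of the 407 other miRNAs that were never flagged was -7.7 to -4.3 units on the TEB arrays, -21.3 and -10.6 units on the duct arrays, and -14.0 to -6.7 units on the stroma arrays. Measured from that median, unscaled, miR-221 stood 22.5 ± 5.1 units higher in TEBs (SD, n = 3), 31.6 ± 2.8 units in the ducts (SD, n = 2) and 18.8 ± 5.4 units in stroma (SD, n = 3), so that the TEB and stroma arrays overlapped and ducts came first. These values are not corrected for the brightness of an array, and the duct arrays had the highest 75th percentiles (1005.1 and 939.6 units). miR-222 stood only 0.4 to 2.1 units above the median on the TEB arrays, 11.0 and 5.0 units on the duct arrays and 4.2 to 5.3 units on the stroma arrays.

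When this median was subtracted before scaling, an alternative chosen after the data had been seen, the log2 fold change of miR-221 between TEBs and stroma fell to 0.04 (standard error 0.20, adjusted p = 0.88 from limma) and that between TEBs and ducts turned to -0.14 (adjusted p = 0.69). Between ducts and stroma it was 0.18 (adjusted p = 0.68 from limma), so no tissue stood out. Background correction by normexp, which fits a background model and here added 50 units to every signal, turned the TEB and stroma comparison to -0.24 (adjusted p = 0.041 from limma) when applied before scaling, and to -0.14 (adjusted p = 0.19 from limma) when applied after it, where it was again added once the data had been seen. When normexp came before scaling, the added 50 units were scaled along with the signal. In the scaling of the reported values, the factors had a geometric mean of 0.999 in TEBs and 1.19 in stroma. The part of such factors in the -0.24 was not tested. The direction and the call of the difference between TEBs and stroma thus changed with the background setting and with its order relative to scaling. With the other scalings the difference between TEBs and stroma stayed above 0 and past the threshold, from 1.14 with no scaling to 1.49 with quantile normalization.

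**Figure D3:**
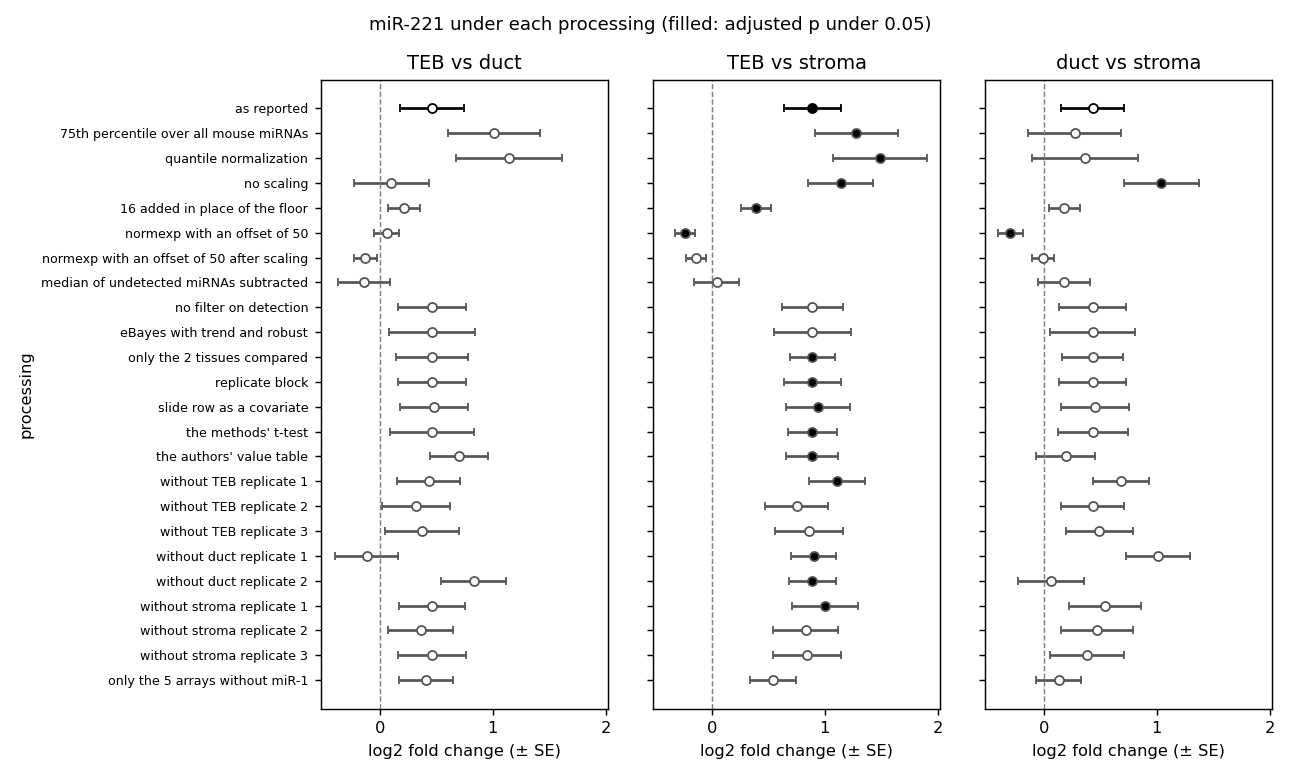
Log2 fold change of miR-221 with its standard error in the 3 comparisons (panels) under each processing (rows), filled where the adjusted p was under 0.05. Between TEBs and stroma most points sit near 0.89, and those from the other background settings sit at or below 0.04.

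The miRNAs of skeletal muscle, a tissue that borders some of the glands, differed between arrays of the same tissue. miR-1, made almost only in striated muscle, was flagged on 3 arrays, at 38.3 and 13.0 units on TEB replicates 2 and 3 and 80.3 units on duct replicate 2. On the other arrays it was between -15.9 and 3.0 units. Those 3 arrays were also those with the highest miR-221 signals. The summed scaled signal of the 3 muscle miRNAs on the list, miR-1, miR-133a and miR-133b, ranged from 17.1 to 89.5 units in TEBs, 55.0 to 178.6 units in ducts and 24.6 to 60.2 units in stroma. miR-133a and miR-133b were each flagged on 5 arrays, the 3 with miR-1 and also duct replicate 1 and stroma replicate 3. By contrast, miR-206, also a miRNA of skeletal muscle but listed here only for oestrogen receptor alpha, was not flagged on any array. Its signal was -8.4 and -14.9 units on TEB replicates 2 and 3 and -8.6 units on duct replicate 2. In a fit to the 5 arrays without miR-1, added after the data had been seen, the log2 fold change of miR-221 was 0.54 between TEBs and stroma (standard error 0.20, adjusted p = 0.13 from limma), with TEBs and ducts each represented by replicate 1 alone and assumed to vary like stroma. The part of muscle in the signal of miR-221 was not tested.

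**Figure D4:**
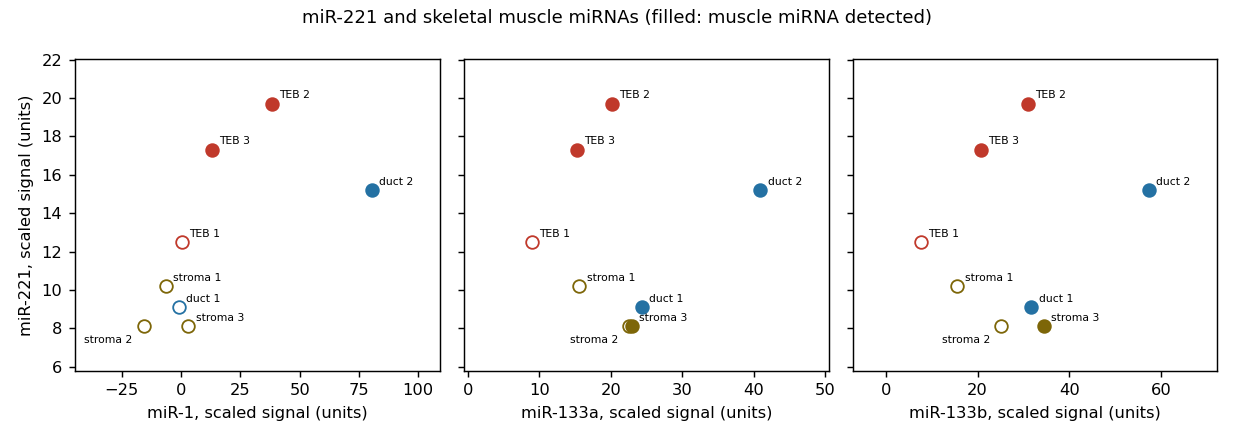
Scaled signal of miR-221 against that of miR-1, miR-133a and miR-133b (panels, intensity units), one point per array, coloured by tissue and filled where the muscle miRNA was flagged as detected. The 3 arrays with miR-1 flagged are the 3 with the highest miR-221 signals, at 15.2 to 19.7 units.

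The endothelial miR-126-3p, a marker of the vessels in which the pair is also known, did not share the profile of miR-221. It was detected on all 8 arrays and was lower in TEBs than in stroma (log2 fold change -1.20, adjusted p = 0.00096 from limma, standard error 0.15), while the other endothelial strand on the list, miR-126-5p, was not flagged on any array. Of the smooth muscle and myoepithelial miRNAs, miR-143 was detected on all 8 arrays and was lower in TEBs than in both other tissues, and miR-145 was not flagged on any.

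Over the 8 arrays, the log2 signals closest to miR-221 by Pearson's correlation among the 166 other tested miRNAs were those of miR-210, miR-21, miR-503 and miR-18a (r = 0.88 for each) and of miR-20a (r = 0.87). With miR-222 at the floor throughout, the mean of the pair gives the profile of miR-221 alone. These are descriptions over arrays that share tissues and scaling, and they hold only for the scanner software's background. With the background median subtracted, the log2 fold change of miR-221 between TEBs and stroma was 0.04, and the correlations were not computed in that setting. As the 5 miRNAs were chosen for following miR-221 on these same arrays, their differences between TEBs and stroma were largely set by that choice and are given with no test. miR-210, known as a miRNA of the hypoxia response, had means of 119, 42.4 and 21.6 scaled units in TEBs, ducts and stroma. miR-503, whose known targets are genes of the cell cycle, shared the flags of miR-221, with 25.4, 20.2 and 22.8 units on the TEB arrays and -1.9 and 6.2 units on the duct arrays. miR-18a and miR-20a come from the miR-17-92 cluster, known for promoting proliferation. miR-21 was flagged on all arrays. The log2 fold change of TEBs over stroma was 0.39 for miR-21, 1.36 for miR-20a and 2.47 for miR-210. miR-18a and miR-503 were not flagged in any stroma sample. Against the weakest signal flagged on each stroma array, TEBs were 10.3-fold and 3.05-fold higher for them, respectively, as point values without error. That signal is not a limit of detection. On stroma replicate 3 it was 3.18 units, and miR-221 was not flagged there at 8.1 units. These values also apply only to the scanner software's background and the scaling used here. miR-503, like miR-221, met the detection filter only through TEBs.

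**Figure D5:**
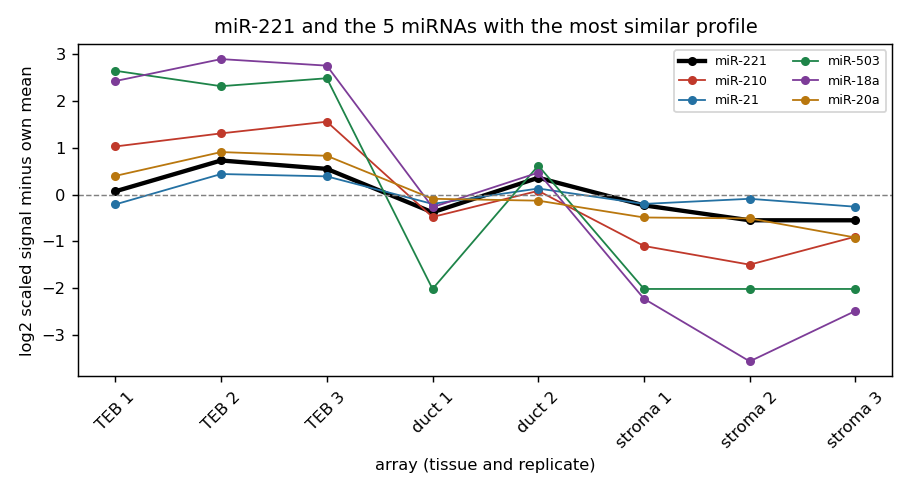
Log2 scaled signal of miR-221 and of the 5 miRNAs with the most similar profile on each array, each with its own mean over the 8 arrays subtracted. The 5 were chosen for this likeness, and miR-503 and miR-18a spread over a wider range than miR-221, which ran from -0.55 to 0.73.

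Other miRNAs were taken from lists drawn up for the same messages. Of 7 listed for oestrogen receptor alpha, 4 were tested and miR-18b, miR-206 and miR-302c were not flagged on any array. miR-18a was higher in TEBs than in ducts (log2 fold change 2.59, adjusted p = 0.013 from limma, standard error 0.43). Between ducts and stroma its log2 fold change was 2.86 (adjusted p = 0.0038 from limma, standard error 0.43), with no stroma array flagged and low stroma signals set to the floor. Against the weakest signal flagged on each stroma array, ducts were 1.71-fold higher, a point value that was not tested. miR-22, miR-193 and miR-193b were instead lower in TEBs and in ducts than in stroma, 3 of 4 tested, where 44.3% and 12% of all tested miRNAs were lower. The log2 fold change of TEBs over stroma was -0.77 for miR-22, -0.81 for miR-193 and -1.21 for miR-193b, with adjusted p from limma of 0.00029, 0.0016 and 0.0020. The median of the 4 was -0.79, beside -0.28 over all tested miRNAs.

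Of 5 listed for p27, 4 were tested and miR-181a was not flagged on any array. miR-196a and miR-196b were lower in TEBs than in stroma, at log2 fold changes of -1.98 and -1.94 respectively (adjusted p = 4e-05 and 0.00032 from limma), and lower in ducts than in stroma by -2.06 and -0.99. miR-196b was also lower in TEBs than in ducts, by -0.95 (adjusted p = 0.024 from limma). miR-24 and miR-148a had log2 fold changes of -0.06 and -0.21 between TEBs and stroma and passed in none of the 3 comparisons. These 2 of 4 called lower in TEBs than in stroma stand beside 44.3% of all tested miRNAs, and the list's median of -1.07 beside -0.28. Of the 8 tested miRNAs of both lists, 1, miR-18a, was called higher in TEBs than in stroma, beside 20.4% of all tested miRNAs.

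Other neighbouring miRNAs were also split in this way, with one detected and its partner not. Of the 496 array names without a star, 367 were matched by mature name to hairpins in RefSeq. Within 1000 bases of each other on the same strand these gave 160 pairs of array entries, many sharing a member or a cluster. In 37 pairs both miRNAs had been detected on every array of some tissue, and in 71 neither was flagged on any array. In 31 pairs (19.4%), miR-221 and miR-222 among them, 1 miRNA was detected on every array of a tissue and the other on no array. The others included miR-132 and miR-212, miR-191 and miR-425, and miR-17 with its neighbours in the miR-17-92 cluster. Here miR-17 was the member flagged on no array, yet the paper reports its expression in both epithelial tissues from a separate RT-PCR assay. A missing flag on these arrays therefore need not mean that a miRNA was absent, and this limit also holds for miR-222. Whether the split pairs differed in expression was not tested. The split pairs were also of unlike kinds. For example, miR-34c was split from miR-34b-3p, while miR-34b-5p of the same hairpin was detected. The names miR-19b and miR-92a were each paired with neighbours in different clusters. The share of 19.4% is thus not one for pairs built like miR-221 and miR-222.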

How the data were processed

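Total RNA was labelled with Cy3 and hybridised to a single-colour Agilent SurePrint Mouse miRNA Array V2, all 8 arrays on one slide. The deposited intensity of each miRNA, per the file headers, is the background-subtracted total signal of Agilent Feature Extraction 9.5.3 with its error and a detection flag, not normalized between arrays. The series value table holds the authors' log2 values, by a normalization not given in the sources used here. It served only as an alternative, and its columns correlated with the log2 scanner signals of detected miRNAs of the same array with r of 0.994 to 0.999. Its column medians ran from 0.14 to 1.48, and its centring is unknown.

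Groups came from the sample labels, and slide rows from the arrays' position codes. Arrays were brought to equal 75th percentiles over the 108 miRNAs flagged on all of them (factors 0.75 to 1.36), and log2 was taken above a floor of 1. In R 4.3.3, limma 3.58.1 was fitted to all 8 arrays for the 167 miRNAs flagged throughout at least 1 tissue, with Benjamini-Hochberg adjustment within each comparison at 0.05. Single values were compared by exact permutation tests. Only the limma fit of TEBs against stroma was tried on simulated arrays, with independent miRNAs. Those arrays did not cover background shifts, signals set to the floor or the permutation tests. Alternatives covered scaling, background, floor, filter, fit, slide row, replicate number, the methods' t-test and leaving out arrays. The text names the pair, miRNAs with their seed, the lists and the 5 nearest profiles. The members and lists were chosen with earlier results of these data known. The number of arrays limits the precision. Arrays of a tissue correlated with r of 0.955 to 0.987 across the tested miRNAs, which are not independent replicates, and no pair of arrays was identical. The mature sequences came from RefSeq, GRCm38.p6.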

Additional observations from a re-analysis of the deposited data

How the results depend on the processing

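With the scanner software's background, the log2 fold change of miR-221 between TEBs and stroma was 0.89, and 13 of 23 alternatives kept both direction and threshold. None of these 13 subtracted the background median or used normexp. They include leaving out duct replicate 1 or 2 (0.9 and 0.89), which kept every TEB and stroma array, so the count does not measure support. The call was lost with no detection filter (adjusted p = 0.08 from limma), with trend and robust estimation (adjusted p = 0.051), with the background median subtracted (0.04), on the 5 arrays without miR-1 (0.54), and without TEB replicate 2 (0.75, adjusted p = 0.063) or 3 (0.86, 0.053) or stroma replicate 2 (0.83, 0.057) or 3 (0.84, 0.054). Leaving out each array gave 0.75 to 1.11 here, -0.12 to 0.83 for TEBs over ducts, 0.06 to 1.01 for ducts over stroma, and 0.59 to 0.93 for epithelium over stroma. Normexp before scaling, where the added units were scaled too, gave -0.24, -0.30 between ducts and stroma and -0.27 for epithelium over stroma. Normexp after scaling gave -0.14, -0.01 and -0.09, and -0.13 between TEBs and ducts, where subtracting the median gave -0.14. With no scaling, ducts over stroma passed (1.04, adjusted p = 0.045 from limma), as did epithelium over stroma (1.10). The causes were not tested. Where only miRNAs detected on all 8 arrays were kept, miR-221 had no value.

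The count of miRNAs called between TEBs and ducts was 41 as reported, 75 with no scaling, 72 with normexp after scaling, 70 with the median subtracted, 18 with no filter, 19 on the 5 arrays, 12 by the methods' t-test (53 before adjustment) and 5 to 70 leaving out an array (5 without TEB replicate 2, 70 without TEB replicate 1, 10 without duct replicate 1). Between TEBs and stroma it was 108, and 66 with the percentile over all miRNAs (82 to 114 leaving out an array). Between ducts and stroma it was 36, against 19 with that percentile, 56 with no scaling, 66 with normexp before scaling, 21 on the 5 arrays and 26 to 40 leaving out an array. Higher and lower calls split as 19 and 22, 34 and 74, and 16 and 20 in the 3 comparisons. They split as 24 and 6, 38 and 28, and 11 and 8 with the percentile over all miRNAs, as 12 and 63, 41 and 41, and 52 and 4 with no scaling, and as 31 and 14 between TEBs and ducts with quantile normalization. The median change moved from -0.10, -0.28 and -0.09 to 0.45, 0.12 and -0.25, to -0.47, -0.03 and 0.50, and to 0.02, -0.07 and -0.12.

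With the replicate number as a block, 16 miRNAs were called between TEBs and ducts and no call of miR-221 changed (0.89, adjusted p = 0.039 from limma). Same-numbered arrays deviated together with r of -0.51 to 0.362 over 7 pairs, and 2 of 8 arrays correlated best with their own number, so the numbers were not taken as a pairing.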
